A study of Macaca mulatta with 17 samples.

Results

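Genes of glucocorticoid signalling were measured on gene expression microarrays of the female fetal rhesus macaque uterus. The 10 genes were the glucocorticoid receptor NR3C1, the cortisol-converting enzymes HSD11B1 and HSD11B2, and 7 genes that the receptor is known to induce, FKBP5, TSC22D3, ZBTB16, PER1, DUSP1, SGK1 and ERRFI1. They were 10 of the 17009 named genes among the 20217 probes of the array, and each was found by its symbol or an older name in the probe descriptions (DSIPI for TSC22D3, SGK for SGK1 and MIG-6 for ERRFI1). Among several probes of a gene, the one to use would be chosen by its mean signal over the 17 arrays, the highest being taken, but each of the 10 genes had 1 probe and measured signal decided nothing.

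The study asked how the fetal uterus changes late in gestation and whether maternal bisphenol A (BPA), a monomer of polycarbonate plastics with weak estrogenic activity, alters it. Dams carrying female fetuses ate a daily piece of fruit holding deuterated BPA at 400 µg per kg body weight or the ethanol vehicle alone. In the GD100 groups, dosing ran from gestational day (GD) 50 to GD100 and 5 BPA-exposed and 5 control fetuses were analysed, whereas in the GD165 groups it ran from GD100 to birth and 3 BPA-exposed and 4 control newborns of GD165 to GD168 were analysed. Each array held RNA from 1 fetus, taken from one side of the uterus cut from fundus to cervix, so all layers of the wall were mixed, and stillborn fetuses were left out by the study. Fetuses of GD100 were delivered by caesarean section and killed at once, whereas those of GD165 were born vaginally and killed within a day, so that gestational age, the route of delivery and the hours after birth cannot be told apart in any comparison of the ages. The period of dosing also differed between the ages and cannot be told apart from these either. Numbers of the animals follow the sample labels, so the GD165 controls are replicates 1, 3, 5 and 6 and the GD165 BPA-exposed fetuses replicates 3, 4 and 5, and values are given in that order. The cortisol of dams and fetuses was not analysed here.

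Cortisol enters cells freely and binds the glucocorticoid receptor, which is held in the cytoplasm by chaperones, moves to the nucleus and switches on genes that hold its response element. Tissues set their own exposure, since HSD11B1 regenerates active cortisol from cortisone and HSD11B2 inactivates it. Fetal cortisol climbs before birth in primates, and many organs mature under its influence.

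The arrays were alike in quality, with between 83.8% and 89.0% of spots well above background and a 75th percentile of signal between 5524 and 7319. Levels are given as log2 signal scaled to the 75th percentile of each array, so that a difference of 1 is a doubling, and levels of different genes cannot be ranked against each other because each probe has its own brightness. All 10 genes were well above background on 17 of 17 arrays and saturated on 0. Of 9 uterine markers, 8 were detected (HOXA10, HOXA11, HOXA13, ESR1, WT1, EMX2, LHX1 and PAX2), while the only probe of PGR, the progesterone receptor, was well above background on 0 of 17 arrays, so no level is given for it. Of 7 genes of adrenal cortex, kidney and liver that were expected to be absent, only SLC12A1 was never well above background. Passing this flag therefore does not by itself show that a gene is expressed. The summed level of 6 smooth muscle markers lay between 20.36 and 21.02 over the 4 groups. A gene counted as called when its limma p, adjusted by Benjamini-Hochberg over all 20217 probes, was under 0.01.

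The arrays carry 60-base probes whose names date from the array's design, and the first 30 bases of the probes of the 6 genes that were called in either comparison of the ages are shown so that each value can be tied to the transcript stretch it was read from. They are written 5′ to 3′ in lower case as the scanner files hold them, and no bases are marked.
ZBTB16: tggagccgagcggggagccaggaaagaaga
TSC22D3: caccttatcctgatgtatggttccaggatt
HSD11B1: taatgaatgtcatgcaccactgcagccagc
NR3C1: atagtgcagaatctcataggttgccaataa
DUSP1: agaatctcttcatgcttgacatacctacca
SGK1: atgtactgtaattaacatggttataatatg

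Between GD100 and GD165 in control fetuses, 3 of the 10 genes were called and all 3 rose, namely ZBTB16, HSD11B1 and TSC22D3. Of all 20217 probes, 11.5% were called in this comparison, 6.32% higher and 5.20% lower at GD165. At a looser adjusted p of 0.05, 8 of the 10 were called, all of them higher at GD165, beside 11.3% of all probes. The median log2 fold change of the 10 genes was 0.69, beside 0.0046 over all probes. In BPA-exposed fetuses, which share no array with the controls, 4 of the 10 were called and all 4 rose, namely ZBTB16, NR3C1, DUSP1 and SGK1, beside 9.68% of all probes, 4.82% higher and 4.86% lower. At the looser threshold 6 of the 10 were called, all higher, beside 9.51% of all probes, and the median was 0.52, beside -0.047 over all probes. ZBTB16 was the only one of the 10 called in both comparisons. In whole tissue, more RNA of a gene in each cell and a larger share of the cells that express it cannot be told apart, which holds for every value given here. The count in controls was 6 without GD165 control replicate 5. In BPA-exposed fetuses the count was 2 without GD165 BPA replicate 3 and 0 with slide as a fixed block. Both counts were 1 when only the compared groups were fitted, ZBTB16 in controls and DUSP1 in BPA-exposed fetuses, so no gene was then called in both.

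**Figure D1:**
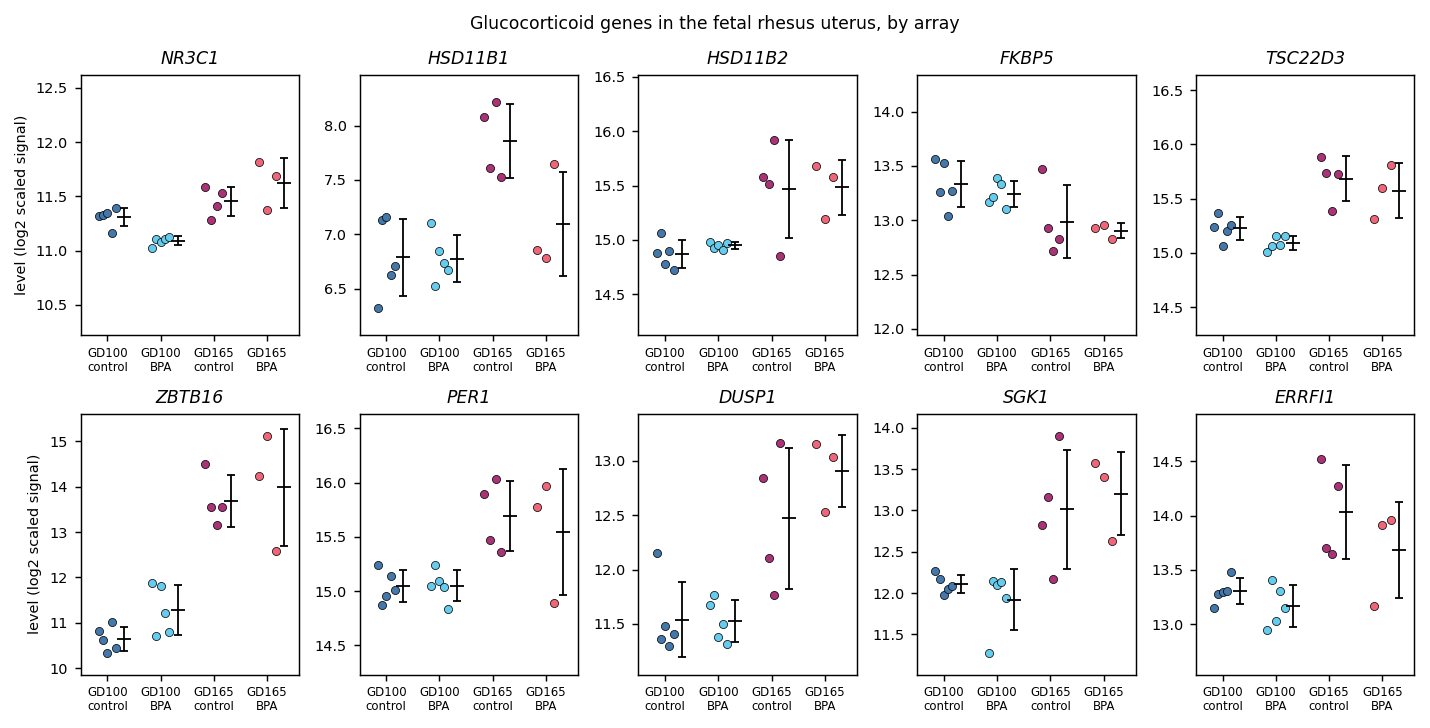
Levels of the 10 genes on the 17 arrays (y axis, log2 scaled signal, its range set for each panel) in the 4 groups (x axis); each point is 1 fetus and the bar to its right is the group mean ± SD. ZBTB16 lies between 10.34 and 11.88 on the GD100 arrays and between 12.59 and 15.12 on the GD165 arrays, whereas NR3C1 stays between 11.02 and 11.82 on all 17.

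**Figure D2:**
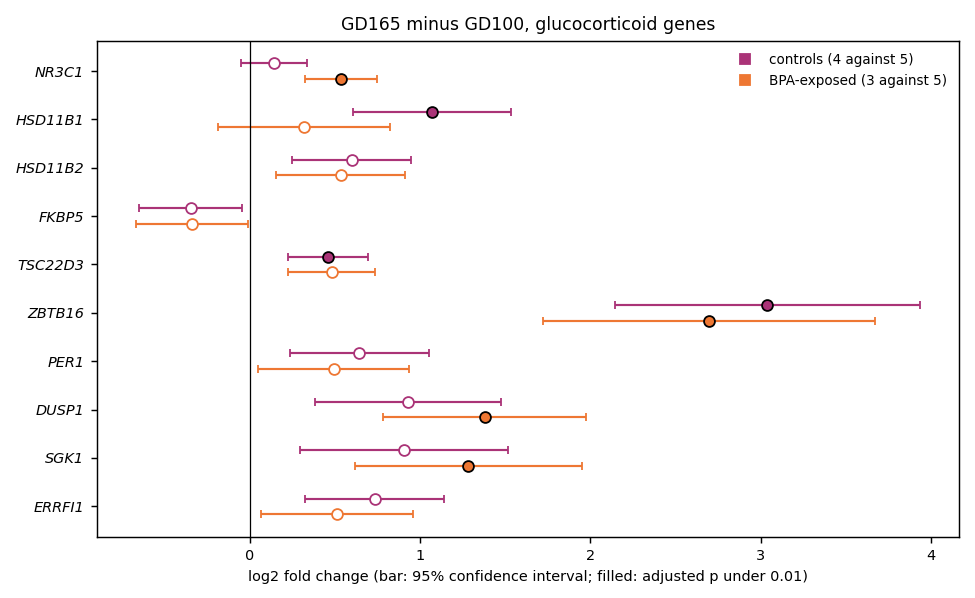
Log2 fold change from GD100 to GD165 (x axis) of the 10 genes (y axis) in controls and in BPA-exposed fetuses; bars are 95% confidence intervals and filled points have an adjusted p under 0.01. ZBTB16 stands at 3.04 and 2.70, 8 others lie above 0 in both comparisons, and FKBP5 lies at -0.34 in both.

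The receptor gene NR3C1 was at 11.32, 11.33, 11.35, 11.16 and 11.39 in the GD100 controls and at 11.59, 11.28, 11.42 and 11.53 in the GD165 controls. These ranges overlapped, and the log2 fold change of 0.14 (95% confidence interval -0.05 to 0.34) was not called (limma adjusted p = 0.302). In the BPA-exposed groups it was at 11.02, 11.11, 11.08, 11.11 and 11.13 at GD100 and at 11.82, 11.37 and 11.69 at GD165. There every GD165 array was above every GD100 array, and NR3C1 rose 1.45-fold (log2 0.54, SE 0.10, limma adjusted p = 0.00180). The change in BPA-exposed fetuses minus that in controls was 0.39 (95% confidence interval 0.11 to 0.68) and was not called (limma adjusted p = 0.529), so a difference between the exposures was not shown. The call in BPA-exposed fetuses was lost without GD165 BPA replicate 3 (adjusted p = 0.0117) and without replicate 5 (adjusted p = 0.0105).

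HSD11B1, the reductase that regenerates cortisol, was at 6.32, 7.13, 7.16, 6.62 and 6.71 in the GD100 controls and at 8.08, 7.61, 8.22 and 7.52 in the GD165 controls. All 4 later arrays lay above all 5 earlier ones, and it rose 2.10-fold (log2 1.07, SE 0.22, limma adjusted p = 0.00271). Without GD165 control replicate 1 its limma adjusted p was 0.0110, and with the replicate number as a block it was 0.0224. In BPA-exposed fetuses it was at 7.10, 6.52, 6.85, 6.73 and 6.67 at GD100 and at 6.85, 6.78 and 7.65 at GD165. Here the ages overlapped, with 1 of the 3 GD165 arrays above the GD100 range, and the log2 fold change of 0.32 (95% confidence interval -0.19 to 0.82) was not called (limma adjusted p = 0.366). The change in BPA-exposed fetuses minus that in controls was -0.75 (95% confidence interval -1.44 to -0.07), which was not called (limma adjusted p = 0.603). The probe was the dimmest of the 10, and its log2 fold changes with age were smaller with normexp background correction. They were then 0.73 in controls, still called (limma adjusted p = 0.00252), and 0.14 in BPA-exposed fetuses.

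HSD11B2, the dehydrogenase that inactivates cortisol, was at 14.88, 15.06, 14.78, 14.90 and 14.72 in the GD100 controls and at 15.58, 15.52, 15.92 and 14.85 in the GD165 controls. Later replicates 1, 3 and 5 lay above the GD100 range and replicate 6, at 14.85, inside it. The log2 fold change of 0.60 (SE 0.16) missed the threshold (limma adjusted p = 0.0161), while without replicate 6 it was 0.80 and called (adjusted p = 5.3e-04). In BPA-exposed fetuses the 5 GD100 arrays lay between 14.91 and 14.98 and the GD165 arrays at 15.68, 15.20 and 15.58, with no overlap, and the log2 fold change of 0.53 (SE 0.18) was not called either (limma adjusted p = 0.0439). In controls HSD11B2 was also called with normexp background correction (0.58, limma adjusted p = 0.00937). Its call with the replicate block (0.80, limma adjusted p = 0.00525) restates that without replicate 6, because no other array bears this number. The difference between HSD11B1 and HSD11B2 was not tested.

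Among the induced genes, ZBTB16, a zinc finger transcription factor that progestins and glucocorticoids both induce in uterine stroma, had the largest log2 fold change of the 10 genes in both comparisons. It was at 10.82, 10.61, 10.34, 11.01 and 10.45 in the GD100 controls and at 14.50, 13.55, 13.15 and 13.55 in the GD165 controls. The ages were far apart, and the 8.22-fold rise (log2 3.04, SE 0.42, limma adjusted p = 1.6e-04) held without any 1 array, with a log2 fold change between 2.77 and 3.22. In BPA-exposed fetuses it was at 11.88, 10.70, 11.82, 11.22 and 10.80 at GD100 and at 14.24, 15.12 and 12.59 at GD165. Again no GD100 array reached the GD165 range, and the rise was 6.48-fold (log2 2.70, SE 0.46, limma adjusted p = 0.00103). The spread at GD165 (SD 1.29, n = 3) was wider than in controls (SD 0.58, n = 4). This call was kept in each repeat without 1 array. It was lost with slide as a fixed block and when only the compared groups were fitted.

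TSC22D3, which encodes the leucine zipper protein GILZ, was at 15.24, 15.37, 15.07, 15.20 and 15.26 in the GD100 controls and at 15.88, 15.74, 15.39 and 15.73 in the GD165 controls. The ranges nearly met but did not overlap, and it rose 1.37-fold (log2 0.46, SE 0.11, limma adjusted p = 0.00787). This call was close to the threshold and was kept in only 2 of 9 repeats that left out 1 array, those without GD100 control replicate 2 or GD165 control replicate 5, with a highest adjusted p of 0.0312. In BPA-exposed fetuses the GD100 arrays lay between 15.00 and 15.16 and the GD165 arrays at 15.31, 15.60 and 15.81, also without overlap, and the log2 fold change of 0.48 (SE 0.12) just missed the threshold (limma adjusted p = 0.0108) and passed it without GD165 BPA replicate 3 (adjusted p = 0.00458).

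DUSP1, a phosphatase that switches off MAP kinases, was at 12.15, 11.36, 11.48, 11.30 and 11.40 in the GD100 controls and at 12.84, 12.11, 11.76 and 13.17 in the GD165 controls. GD100 control replicate 1 reached into the later range, and the log2 fold change of 0.93 (SE 0.26) was not called (limma adjusted p = 0.0169), although it was without that array (adjusted p = 0.00758) or without GD165 control replicate 5 (adjusted p = 0.00344). In BPA-exposed fetuses it was at 11.67, 11.76, 11.38, 11.50 and 11.31 at GD100 and at 13.15, 12.53 and 13.03 at GD165. The ages did not overlap there, and DUSP1 rose 2.60-fold (log2 1.38, SE 0.28, limma adjusted p = 0.00322). Its call was lost without GD165 BPA replicate 3 (adjusted p = 0.0177) or replicate 5 (adjusted p = 0.0164). The difference between the exposures was 0.45 (95% confidence interval -0.36 to 1.25) and was not called (limma adjusted p = 0.816).

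SGK1, a kinase that raises sodium channel activity, was at 12.26, 12.17, 11.97, 12.05 and 12.08 in the GD100 controls and at 12.82, 13.16, 12.17 and 13.90 in the GD165 controls. The later arrays were spread widely (SD 0.72, n = 4) and the lowest lay inside the GD100 range, with a log2 fold change of 0.91 (SE 0.29) that was not called (limma adjusted p = 0.0348) except without that array, GD165 control replicate 5 (adjusted p = 0.00534). In BPA-exposed fetuses it was at 11.28, 12.15, 12.10, 12.13 and 11.94 at GD100 and at 13.58, 13.40 and 12.63 at GD165. The ages did not overlap, and SGK1 rose 2.43-fold (log2 1.28, SE 0.31, limma adjusted p = 0.00958). That call was kept in only 1 of 8 repeats that left out 1 array, the one without GD165 BPA replicate 5, and the highest adjusted p was 0.0489.

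The other induced genes were not called in either comparison. PER1, a repressor of the circadian clock, lay between 14.87 and 15.24 in the GD100 controls and between 15.36 and 16.03 in the GD165 controls, a log2 fold change of 0.64 (SE 0.19, limma adjusted p = 0.0259). ERRFI1, an inhibitor of the EGF receptor, lay between 13.15 and 13.48 and between 13.64 and 14.53, a log2 fold change of 0.73 (SE 0.19, limma adjusted p = 0.0131). Neither gene's ages overlapped in controls, and both overlapped in BPA-exposed fetuses, where 1 of 3 GD165 arrays lay low, at 14.89 for PER1 and at 13.17 for ERRFI1. The log2 fold changes there were 0.49 (SE 0.21, limma adjusted p = 0.107) and 0.52 (SE 0.21, limma adjusted p = 0.0944). Leaving out that array, GD165 BPA replicate 5 for PER1, gave 0.82, which was called (adjusted p = 0.00627). ERRFI1 was called in controls without GD165 control replicate 3 (adjusted p = 0.00983) or replicate 5 (adjusted p = 0.00665).

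FKBP5 stood apart in direction. It encodes a co-chaperone that lowers the receptor's affinity for cortisol and is a widely used readout of receptor activity. It was at 13.56, 13.26, 13.53, 13.04 and 13.27 in the GD100 controls and at 13.47, 12.93, 12.72 and 12.83 in the GD165 controls. Apart from GD165 control replicate 1 the later arrays were all below the earlier ones, and the log2 fold change of -0.34 (95% confidence interval -0.65 to -0.04) was not called (limma adjusted p = 0.0993), while without that array it was called (adjusted p = 0.00832). In BPA-exposed fetuses it was at 13.17, 13.21, 13.39, 13.34 and 13.10 at GD100 and at 12.93, 12.96 and 12.83 at GD165. All 3 later arrays were below all 5 earlier ones, with a log2 fold change of -0.34 (95% confidence interval -0.67 to -0.01, limma adjusted p = 0.136). Both intervals of FKBP5 lay below 0, while both of ZBTB16 and both of TSC22D3 lay above 0.

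Groups did not overlap for 5 of the 10 genes in controls, all 5 higher at GD165, beside 19.4% of all probes, of which those higher made up 9.51% of all. In BPA-exposed fetuses they did not overlap for 7 of the 10, 6 higher and FKBP5 lower, beside 27.2% of all probes, 11.7% higher and 15.4% lower. The arrays lay on 6 slides, of which all but 1 held arrays of several groups. The remaining slide held only GD165 control replicate 5, so a fixed slide block takes this array out of the comparison. Each slide that held both ages of an exposure held 1 array of each, so a difference on it is that of 1 fetus against 1 fetus. The share of all probes that were higher on these slides was not analysed here. Among control arrays, 8 of the 10 genes were higher at GD165 on 1 such slide, where ZBTB16 differed by 3.21. On the other it was 10 of 10, and ZBTB16 differed by 4.05. On the only such slide for BPA-exposed fetuses 9 of 10 were higher and ZBTB16 differed by 1.78. With slide as a fixed block, ZBTB16 and TSC22D3 were called in controls (log2 fold changes of 3.33 and 0.64, limma adjusted p = 8.6e-04 and 0.00347), HSD11B1 was not (0.98, adjusted p = 0.0231), and none of the 10 was called in BPA-exposed fetuses, where DUSP1 had an adjusted p of 0.0160, SGK1 of 0.0139, ZBTB16 of 0.0145 and NR3C1 of 0.0525. With slide as a random block the calls were those of the fit without it.

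Cell type markers also moved between the ages. The summed level of 10 leukocyte markers lay between 15.64 and 16.11 in GD100 controls and between 16.75 and 17.16 in GD165 controls, and 2 of the 10, CD74 and LYZ, rose. The summed level of 5 measured epithelial markers lay between 15.91 and 16.60 and between 17.10 and 17.38, and 3 of the 5, EPCAM, KRT18 and CLDN4, rose. Smooth muscle sums were 20.36 to 20.80 and 20.60 to 21.02 (2 of 6 markers rose), endothelial sums 14.76 to 15.69 and 15.74 to 16.67 (1 of 5 rose), stromal sums 19.03 to 19.35 and 18.79 to 19.26 (1 of 5 fell), and erythroid sums 17.92 to 18.68 and 18.76 to 20.27 (1 of 6 rose). The erythroid sum did not speak for its list, since 2 of the 6 markers were higher at GD165 in controls and 4 lower. Their median log2 fold change was -0.03, and in BPA-exposed fetuses it was -1.58, again with 2 higher and 4 lower. Skeletal muscle sums ran from 11.23 to 11.64 at GD100 and from 12.62 to 16.44 at GD165 (4 of 6 rose). In BPA-exposed fetuses the leukocyte sums were 15.69 to 16.05 and 16.48 to 17.39, and the epithelial sums 15.87 to 16.45 and 16.55 to 17.16. There 8 of the 10 leukocyte markers were higher at GD165, 2 of them called, and 2 lower. Of the 5 epithelial markers 3 were higher, 1 of them called, and 2 lower, so these sums do not speak for every marker either. The part of these cell types in the values of the 10 genes was not tested.

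BPA against control at the same age gave 0 calls among the 10 genes at either age in the limma fit, beside 0% of all probes at both. The paper, with its own error-weighted test, reported significant expression differences between the exposures at GD165 and minimal ones at GD100. The 0% therefore describes the limma fit and does not show that BPA left every probe unchanged. At an unadjusted p under 0.05, limma gave 1 of the 10 at GD100 (3.79% of all probes) and 1 of the 10 at GD165 (8.61% of all probes). The median log2 fold change of the 10 genes was -0.05 at GD100 and -0.03 at GD165. These comparisons share their arrays with those of the ages, so that values of a gene in both are not independent. The gene at GD100 was NR3C1, whose 5 BPA arrays were all below all 5 control arrays, with a log2 fold change of -0.22 (95% confidence interval -0.40 to -0.04, limma adjusted p = 0.9999). It was the only one of the 10 whose groups did not overlap at GD100, beside 0.782% of all probes, 0.401% with BPA lower, while at GD165 0 of the 10 did, beside 7.31% of all probes. On the 3 slides that held both groups of GD100, the difference of NR3C1, BPA minus control, was -0.16, -0.20 and -0.32. The summed level of the erythroid markers separated the same groups, from 17.92 to 18.68 in controls and from 18.75 to 19.32 with BPA, though 0 of the 6 were called, and its part in the difference of NR3C1 was not tested. The gene at GD165 was HSD11B1, with a log2 fold change of -0.76 (95% confidence interval -1.29 to -0.24, limma adjusted p = 0.455), and there 1 of the 3 BPA arrays, at 7.65, lay among the controls.

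For the remaining genes the intervals bounded what BPA could have done at this number of animals. At GD100 the interval for FKBP5 ran from -0.38 to 0.19, that for TSC22D3 from -0.36 to 0.09 and that for ZBTB16 from -0.20 to 1.49. At GD165 they were wider, from -0.43 to 0.26 for FKBP5, from -0.38 to 0.16 for TSC22D3 and from -0.72 to 1.32 for ZBTB16. The change with age did not differ between the exposures for any of the 10 genes past the threshold (0 called, beside 0% of all probes), with 2 of the 10, NR3C1 and HSD11B1, at an unadjusted p under 0.05, beside 7.83% of all probes. No gene of the 6 further lists of pathway genes was called for BPA at either age.

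**Figure D3:**
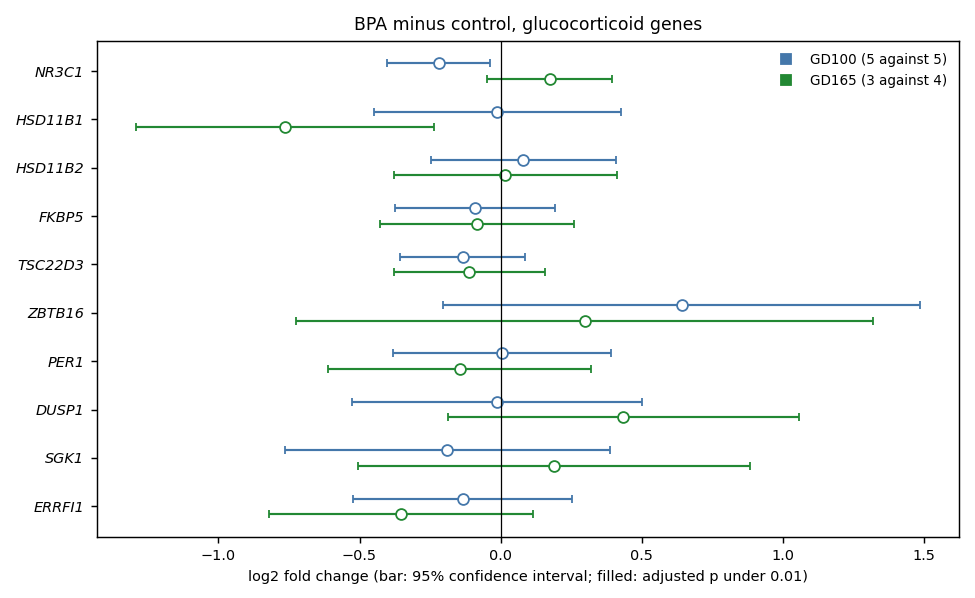
Log2 fold change of BPA against control (x axis) of the 10 genes (y axis) at GD100 and at GD165; bars are 95% confidence intervals, and no point is filled because none had an adjusted p under 0.01. The intervals of NR3C1 at GD100 (-0.40 to -0.04) and of HSD11B1 at GD165 (-1.29 to -0.24) do not hold 0, and those of the other 8 genes hold 0 at both ages.

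Further genes of the pathway were taken from 6 lists, whose counts stand beside the 11.5% of all probes called in controls (6.32% higher) and the 9.68% called in BPA-exposed fetuses (4.82% higher). Among 34 measured genes (of 36 listed) that glucocorticoids are known to induce, 13 rose and 1 fell in controls, with a median log2 fold change of 0.73. KLF9 (BTEB1 on the array), a transcription factor of the Kruppel family that is a direct receptor target, was at 9.79, 9.83, 9.54, 9.73 and 9.67 in the GD100 controls and at 14.46, 13.56, 13.47 and 14.02 in the GD165 controls. The ages were further apart than for ZBTB16, a 17.9-fold rise (log2 4.16, limma adjusted p = 7.0e-07). RASD1, a small GTPase induced by dexamethasone, rose by a log2 fold change of 2.85, SCNN1G, a subunit of the epithelial sodium channel, by 2.19, ANXA1, an anti-inflammatory phospholipid-binding protein, by 1.95 and GADD45A, a growth arrest gene, by 1.85. The gene that fell was DDIT4, an inhibitor of mTOR signalling, at -0.76 (limma adjusted p = 4.9e-04), and it was named after its value was seen. In BPA-exposed fetuses 12 of the 34 rose and 1, DDIT4, fell, with KLF9 at 3.75, RASD1 at 2.76, SCNN1G at 2.18 (1.44 with normexp correction), ANXA1 at 1.72 and GADD45A at 1.56. That count was 8 in all without GD165 BPA replicate 4 and 4 with slide as a fixed block, and in controls it was 7 with the replicate number as a block.

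Among 19 measured chaperones, coregulators and steroid receptors, 3 (15.8%) rose in controls, beside 6.32% of all probes, and the median was 0.01. Among them were NR3C2, the mineralocorticoid receptor, which also binds cortisol (2.90-fold, limma adjusted p = 8.5e-06), and ESR1, the estrogen receptor alpha (1.66-fold, limma adjusted p = 0.00458). The mean level of NR3C2 was 9.75 ± 0.11 (SD, n = 5) in GD100 controls and 11.29 ± 0.20 (SD, n = 4) in GD165 controls. In BPA-exposed fetuses 3 genes of the list rose, NR3C2 by a log2 fold change of 1.58 and ESR1 by 0.95 among them, and with slide as a fixed block 1 gene of the list was called there.

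Among 18 measured genes of cortisol supply and clearance, 3 rose and 1 fell in controls, and 1 rose in BPA-exposed fetuses. ABCB1, a pump that exports steroids, had a log2 fold change of 2.33 in controls and 2.11 in BPA-exposed fetuses, and it was well above background on 4 of 5 and 3 of 5 of the respective GD100 arrays. With normexp background correction these values shrank to 0.86 and 0.73, and ABCB1 was still called in both. SRD5A2, a steroid reductase, rose by 1.90 in controls (0.91 with normexp correction) and AKR1C1, a reductase of progesterone, by 1.62, while UCN, a peptide related to corticotropin-releasing hormone, fell by 0.44. H6PD, which supplies the cofactor of HSD11B1, was at -0.20 in controls (limma adjusted p = 0.497). Of the genes of steroid synthesis, STAR and CYP11A1 were never above background, as was the corticotropin receptor MC2R, whereas CYP17A1, CYP21A2 and CYP11B1 were well above background on 17 of 17 arrays and were not called in either comparison of the ages. These 6 genes were named after their values were seen. The count in controls was 1 with slide as a fixed block and 1 with the replicate number as a block.

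Among 14 measured inflammatory genes that glucocorticoids are known to repress, 3 rose in controls and none fell, with a median of 0.39. TNF rose 3.54-fold and ICAM1 1.48-fold. IL6, whose probe was well above background on 3 of 5 GD100 arrays, rose by a log2 fold change of 1.78, which was 0.53 with normexp correction. Without GD165 control replicate 1 the count was 1. In BPA-exposed fetuses CXCL10, TNF and IL1B rose, by log2 fold changes of 1.79 (1.01 with normexp correction), 1.76 and 1.51, and without GD165 BPA replicate 3, or with slide as a fixed block, the count was 0. Among 18 immediate early genes, which many stimuli including tissue handling raise within minutes, 4 rose and 1 fell in controls (ATF3 1.25, BTG2 1.03, ZFP36 0.93, FOSB 0.82 and MYC -0.71 on the log2 scale) and 7 rose in BPA-exposed fetuses, led by CYR61 at 1.84, ATF3 at 1.56, EGR2 at 1.30, JUN at 1.30 and KLF4 at 1.17. Those counts went down to 3 in controls in 6 of the 9 repeats without 1 array, and to between 2 and 4 in all 8 repeats in BPA-exposed fetuses. DUSP1, SGK1 and PER1 also belong to the genes that growth factors and stress raise quickly, and the part of such signals in their levels was not tested.

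Among 14 circadian genes, 2 (14.3%) rose in controls, beside 6.32% of all probes, BHLHE40 (2.44-fold) and DBP (1.31-fold), both transcription factors of the clock. The median was 0.13, and the count was 1 with slide as a fixed block, with the replicate block, without scaling and when only the compared groups were fitted. In BPA-exposed fetuses BHLHE40 alone rose (2.40-fold), and 2 genes did without GD165 BPA replicate 5. Of the genes selected from the 6 lists, 22 were called in controls and 16 of these kept their call in each of 9 repeats without 1 array, the others being RASD1, ESR1, IL6, ICAM1, ZFP36 and MYC. In BPA-exposed fetuses 20 were called and 8 kept their call in each of 8 repeats, namely KLF9, SCNN1G, ANXA1, GADD45A, NR3C2, ABCB1, ATF3 and BHLHE40.

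**Figure D4:**
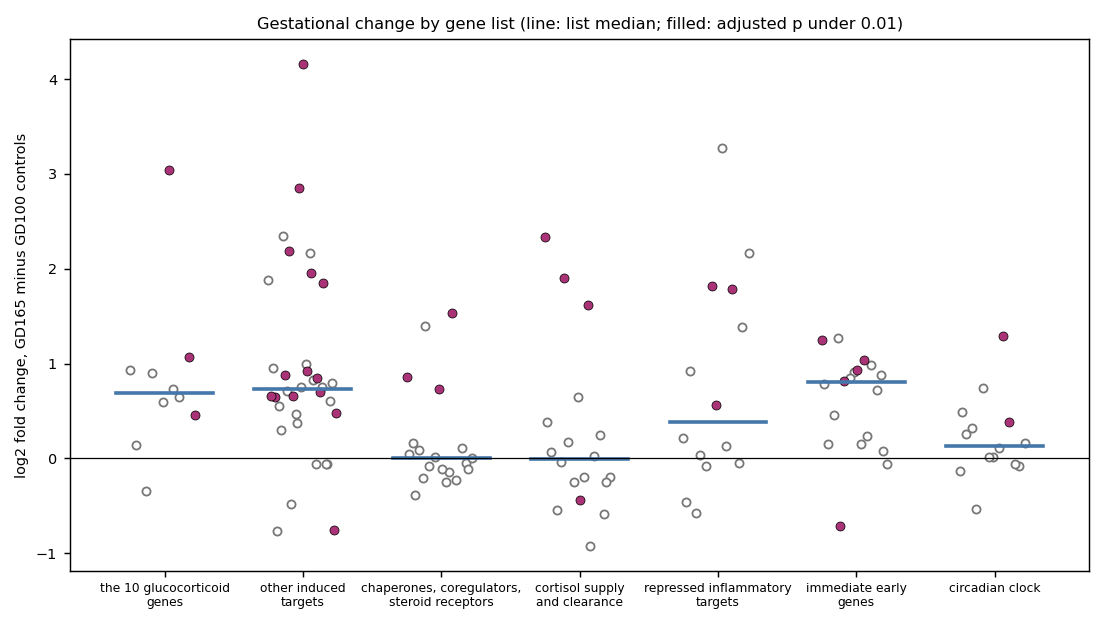
Log2 fold change from GD100 to GD165 in controls (y axis) of each measured gene in the 10 glucocorticoid genes and 6 further lists (x axis); lines are list medians and filled points have an adjusted p under 0.01. The medians of the glucocorticoid genes (0.69), the other induced targets (0.73) and the immediate early genes (0.80) lie above those of the chaperones and receptors (0.01) and of cortisol supply (-0.0063).

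Whether the 10 genes varied together among animals of one age was also tested. After the mean of each group was taken out, Pearson's r was computed for all 45 pairs over the 10 GD100 arrays and over the 7 GD165 arrays. At either age 0 pairs had an adjusted p under 0.05 (permutation test of pairings, two-sided), with a lowest adjusted p of 0.443 and 0.232. All orderings were enumerated at GD165. The centred values were permuted across the groups of an age, so these p-values are approximate. The strongest pair was HSD11B1 and SGK1 at GD165, with r = -0.886 (permutation p = 0.00516) and rho = -0.857 (permutation p = 0.0238). Its r was -0.740 without the 2 arrays farthest from the median of HSD11B1. The signs were mixed, with 23 of 45 pairs positive at GD100 and 28 of 45 at GD165.

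The genes whose deviations from the group means were most like those of ZBTB16 over the 17 arrays, among 14057 genes well above background throughout, were TSPAN15 (r = 0.902), HARS (r = 0.878) and DNAJC11 (r = 0.869), of which TSPAN15 also rose with age in controls (log2 1.04, limma adjusted p = 0.00178) and the others did not (-0.07 and -0.09). For TSC22D3 they were ZNF161 (r = 0.874), NNMT (r = 0.869) and TP53INP1 (r = 0.854), of which NNMT rose with age in controls (log2 3.44, limma adjusted p = 1.2e-04), more than any of the 10 genes, and the others were not called (0.21 and 0.55). These coefficients are the highest of 14057 and describe these arrays, which share slides and scaling.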

How the data were processed

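One-colour Agilent rhesus arrays (V1) of 17 fetal uteri were analysed, 1 array per fetus. The authors isolated total RNA, hybridised Cy3-labelled cRNA and extracted spots with Feature Extraction 9.5, and the deposited intensity (gProcessedSignal) is already background-subtracted; the deposited value table held the same values in 711467 of 711467 comparisons, and 0 columns were left unused. Here the 2 spots of each probe were averaged without outlier spots, log2 values were shifted by each array's 75th percentile, and limma 3.58.1 in R 4.3.3 was fitted to all 17 arrays in 4 groups, two-sided, with Benjamini-Hochberg adjustment over 20217 probes and a threshold of 0.01. The study's methods name an error-weighted ANOVA, for which limma stands in. Of the probes, 18580 (91.9%) have a gene name in the files, some of them old, and these were updated by hand. Pairs of genes were tested with scipy 1.17.1.

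Named here are the 10 genes, from each further list the up to 5 called genes with the largest log2 fold change per comparison, NR3C2, PGR and H6PD, and the 3 genes most like ZBTB16 and TSC22D3. The genes and lists were chosen with earlier results of these data known. KRT19, VIM, CDKN1C, MT2A, BAG1, NCOA1 and CRHR1 were not analysed here, and some selected genes are not reported here. The fit was tested on simulated data. The alternatives, 15 settings and 17 repeats without 1 array, covered the background correction, the scaling, a filter on dim probes, outlier spots, the groups fitted, moderation, weights, slide, replicate number and threshold. Precision is limited by the number of arrays. Each label names 1 fetus, and nothing says that RNA of 1 animal was used on several arrays.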

Additional observations from a re-analysis of the deposited data

Results flagged for a closer look

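In 30 groups of 4 or 5 arrays, 10 genes in each of 3 groups, 2 arrays stood far from the rest of their group, while chance gives about 1 in 20. DUSP1 was at 12.15 in GD100 control replicate 1, where the nearest of the other 4 was at 11.48 and the lowest at 11.30. SGK1 was at 11.28 in GD100 BPA replicate 1, where the nearest of the other 4 was at 11.94 and the highest at 12.15. The GD165 BPA group, of 3 arrays, was not tested in this way.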

How the results depend on the processing

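The 15 settings and 17 repeats without 1 array left the direction of each of the 10 genes unchanged in both comparisons of the ages. In controls the number of the 10 genes called was 5 with normexp background correction, 1 when only the compared groups were fitted and 8 at an adjusted p of 0.05, and between 2 and 6 without 1 array. In BPA-exposed fetuses it was 1 when only the compared groups were fitted and 0 with slide as a fixed block, and between 2 and 3 without 1 array. The BPA comparisons and the interaction gave 0 under every setting. The replicate number as a block left 2 of the 10 called in controls (ZBTB16 and HSD11B2, with HSD11B2 at 0.80, limma adjusted p = 0.00525) and 4 in BPA-exposed fetuses. No other array shares the number of GD165 control replicate 6, so the block takes that array out of the comparison. Of 19 same-numbered pairs 3 had a correlation of deviations over 0.1 (range -0.170 to 0.161). The labels do not say whether the numbers stand for more than the names of animals, and these correlations cannot show it. Deposited values without scaling moved the median of all probes in BPA-exposed fetuses from -0.047 to 0.134, and H6PD there turned from -0.18 to 0.00022, neither called.

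Among the 10 genes, differences that turned sign all lay in the BPA comparisons or the interaction, none of them called, and the cause was not tested. BPA against control at GD100 turned to 0.0058 for DUSP1 with normexp correction and to 0.0062 when the percentile was taken over probes above background on all arrays, where HSD11B1 came to 0.0068. HSD11B1 came to 0.018 with slide as a fixed block, and PER1 to -0.026 with scaling to medians and to -0.035 without scaling. At GD165 FKBP5 came to 0.077, TSC22D3 to 0.049 and PER1 to 0.014 without scaling, ZBTB16 to -0.051 with slide as a fixed block and HSD11B2 to -0.16 with the replicate block. The interaction of FKBP5 came to -0.0036 with that percentile, to -0.21 with slide as a fixed and to -0.025 as a random block, that of TSC22D3 to -0.21 and to -0.0034 with the same blocks, and without scaling that of PER1 to 0.050 and that of HSD11B2 to 0.14.

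Without 1 array, the GD100 difference ranged from -0.043 to 0.058 for PER1, -0.073 to 0.14 for DUSP1 and -0.13 to 0.079 for HSD11B1. The GD165 difference ranged from -0.274 to 0.996 for ZBTB16, -0.17 to 0.080 for FKBP5, -0.23 to 0.021 for TSC22D3, -0.36 to 0.18 for PER1, -0.19 to 0.17 for HSD11B2 and -0.092 to 0.49 for SGK1. The interaction ranged from -0.91 to 0.36 for ZBTB16, -0.081 to 0.17 for FKBP5, -0.095 to 0.16 for TSC22D3, -0.36 to 0.18 for PER1, -0.27 to 0.087 for HSD11B2 and -0.36 to 0.037 for ERRFI1. With 3 to 5 animals a group, the precision was limited, as the confidence intervals show, and HSD11B1 had the lowest mean signal of the 10 probes.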
